A study of Mus musculus with 4 samples.

Results

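The genes described here are 45 mouse genes of the lysosome, taken from a named list and not picked by a limit on their values. The list was nevertheless chosen with earlier results of these data known. The 45 genes encode 8 subunits of the V1 sector of the vacuolar proton pump, 7 membrane proteins, 8 cathepsins with the peptidase Tpp1, 10 glycosidases, 3 sulfatases, 6 lipid enzymes and carriers, the granule protein progranulin (Grn) and the autophagy receptor Sqstm1. All 45 were found among the 22835 genes of the exon table, and all 45 passed the expression limit of 10 RPKM in at least 1 of the libraries compared. RPKM, the unit of all levels below, divides the reads on an exon by its length and by the depth of the library.

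RNA was sequenced from 4 kinds of cultured mouse cells with 1 library each, and 3 of these libraries were analysed here. MEF is the library labelled as wild-type mouse embryonic fibroblasts at passage 3. Dox (-) is Mitf knock-in MEFs at passage 5 without doxycycline, and Dox (+) is Mitf knock-in MEFs at passage 5 after 6 days of doxycycline. Both knock-in libraries carry the M2rtTA transactivator at ROSA26, a doxycycline-responsive M-Mitf transgene targeted beside Col1a1 and an mCherry marker. Doxycycline is the only difference between them that the labels give, and other differences between the 2 cultures are not excluded. The knock-in cells came from a single targeted stem cell clone passed through chimeric embryos, in which host cells are also present, and were separated from the host cells by drug resistance. Wild-type cells lack all of these alleles and were 2 passages younger. No library of doxycycline-treated cells without the transgene was analysed here, so effects of doxycycline and of Mitf cannot be told apart. The primary melanocyte library (PMel) was not analysed here, because the name of the remaining column matched no library label.

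Each condition was sequenced once, so no difference below has a replicate check or a test. The depth recovered from the values was 44000000 to 45000000 reads per library. Intervals given below are 95% intervals of the reads on 1 exon and cover counting error only, so a difference larger than its interval is a difference between these 2 libraries and not shown to be one between conditions. Mitf itself had 1.52 RPKM in MEF, 30.8 RPKM in Dox (-) and 1544 RPKM in Dox (+), which follows the labels. The 10 macrophage markers summed to 47.2 RPKM in MEF, 16877 RPKM in Dox (-) and 576 RPKM in Dox (+), so the untreated knock-in library stands apart from both others. All 9 fibroblast markers were detected in every library, with a lowest level of 6.07 RPKM in MEF, 86.6 RPKM in Dox (-) and 44.8 RPKM in Dox (+). Of these 9, 8 were higher in Dox (-) than in MEF (50.6% of all genes), 7 of them more than 2-fold (17.3% of all genes). The 1 that was lower was Vim, an intermediate filament gene, at 24417 RPKM in MEF, 12302 RPKM in Dox (-) and 24345 RPKM in Dox (+).

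Lysosomes degrade proteins, glycans and lipids delivered by endocytosis and autophagy. The V1 sector sits on the cytosolic face of the membrane, hydrolyses ATP and drives protons through the V0 sector, and the resulting acidity activates the cathepsins, glycosidases, sulfatases and lipases in the lumen. Most of these soluble enzymes carry a mannose 6-phosphate tag that is read by sorting receptors, while the membrane proteins protect the limiting membrane or move ions and lipids across it. MITF belongs to the MiT/TFE family with TFEB, TFE3 and TFEC. These factors bind the E-box CACGTG, and TFEB and TFE3 are known regulators of lysosomal genes. Melanosomes, the pigment organelles of melanocytes, are related to lysosomes.

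Promoter sequence was read for the E-box that this family binds. RefSeq windows from 250 bases before to 50 bases after the start site were found for 37 of the 45 genes, on build GRCm38.p6. No window was given for Atp6v1b2, Atp6v1c1, Atp6v1g1, Atp6v1h, Ctsb, Ctsh, Asah1 and Npc1. The letters CACGTG, which read the same on both strands, were present in a window of 14 of the 37 genes (37.8%). The share was 8.09% of all 27025 genes with windows of the same length. Among genes with a window, they occurred in 3 of 6 membrane protein genes, 4 of 7 cathepsin and Tpp1 genes and 4 of 10 glycosidase genes. They also occurred in 2 of 3 sulfatase genes and 1 of 4 V1 genes, and in none of the 5 lipid genes, Grn or Sqstm1. The longer form GTCACGTG or CACGTGAC, which contains CACGTG and was read on both strands, was present in 10 of 37 (27.0%, against 2.55% of all genes with a window). TCACGTGA, which overlaps these forms, was present in 6 (16.2%, against 1.12%). The related E-box CATGTG or CACATG, its reverse complement, was present in 8 (21.6%, against 15.9%).

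The sequences below are shown because they carry the E-box in genes above Dox (-) in Dox (+) (Naglu, Gla, Sgsh, Atp6v1a) and in genes that were not (Lamp1, Glb1, Cln3, Ctsd). Each is printed 5′ to 3′ on the strand of the gene, with CACGTG in capitals.
Naglu, chr11:101070009-101070038, plus strand: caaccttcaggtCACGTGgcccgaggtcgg
Gla, chrX:134601182-134601211, minus strand: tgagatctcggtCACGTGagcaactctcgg
Sgsh, chr11:119355522-119355551, minus strand: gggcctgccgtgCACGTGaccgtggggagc
Atp6v1a, chr16:44139365-44139410, minus strand: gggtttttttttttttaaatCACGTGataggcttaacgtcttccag
Lamp1, chr8:13159080-13159160, plus strand: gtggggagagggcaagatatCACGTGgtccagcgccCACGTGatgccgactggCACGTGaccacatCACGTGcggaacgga
Glb1, chr9:114401010-114401055, plus strand: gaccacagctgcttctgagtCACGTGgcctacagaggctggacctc
Cln3, chr7:126583340-126583369, minus strand: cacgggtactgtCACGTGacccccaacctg
Ctsd, chr7:142387908-142387937, minus strand: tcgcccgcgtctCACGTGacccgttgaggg

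Lamp1 had 4 of these boxes within the last 81 bases before its start site. Of the 14 genes with CACGTG, 6 were higher and 8 were lower after doxycycline, with a median log2 fold change of -0.09. Of the 23 genes with a window without it, 8 were higher, with a median of -0.21. A match is a description of the letters and not a binding site, and binding was not measured in these files.

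**Figure D1:**
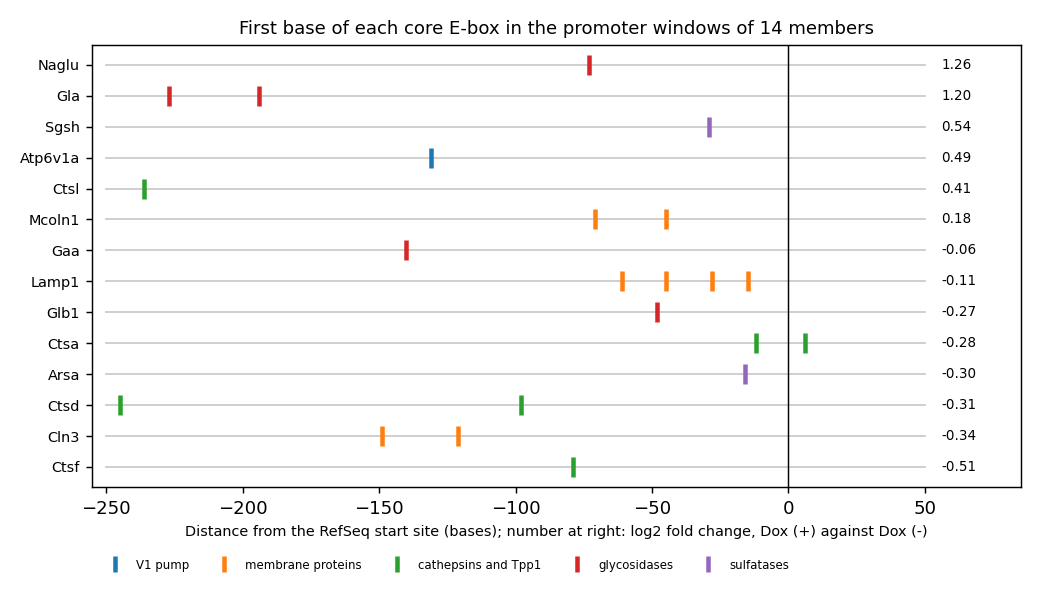
The first base of each CACGTG in the promoter windows of the 14 genes that hold it is marked by distance in bases from the RefSeq start site, coloured by role, with the log2 fold change of the gene between Dox (+) and Dox (-) at the right. Genes are sorted by that change, and boxes lie near the start site both in genes that were higher (Naglu, 1.26) and in genes that were lower (Ctsf, -0.51).

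The level of a gene below is the RPKM of its highest exon in a library, as the authors defined it. This exon was under 100 bp in 31 of the 45 genes, from 5 bp in Psap to 806 bp in Atp6v1g1. A read that only touches a very short exon still counts in full, which raises RPKM there, so these levels are compared between libraries and not between genes. For levels between genes, reads were summed per kb over exons of a gene that do not overlap each other. On that scale Ctsd was the highest in Dox (+) at 3216 RPKM, followed by Ctsl at 2037, Psap at 1670, Lamp1 at 1415, Sqstm1 at 1194 and Ctsb at 1098 RPKM. The lowest in Dox (+) were Cln3 at 16.2, Sgsh at 18.6 and Manba at 19.0 RPKM. In MEF the highest was Ctsl at 3116 RPKM, with Ctsd at 1475 RPKM, and in Dox (-) it was Ctsd at 4065 RPKM, with Psap at 1902 and Ctsl at 1556 RPKM. Counts of exons below take every annotated exon, and overlapping entries of a gene share reads. All exons also come from the same libraries, so these counts are not independent checks of a difference.

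**Figure D2:**
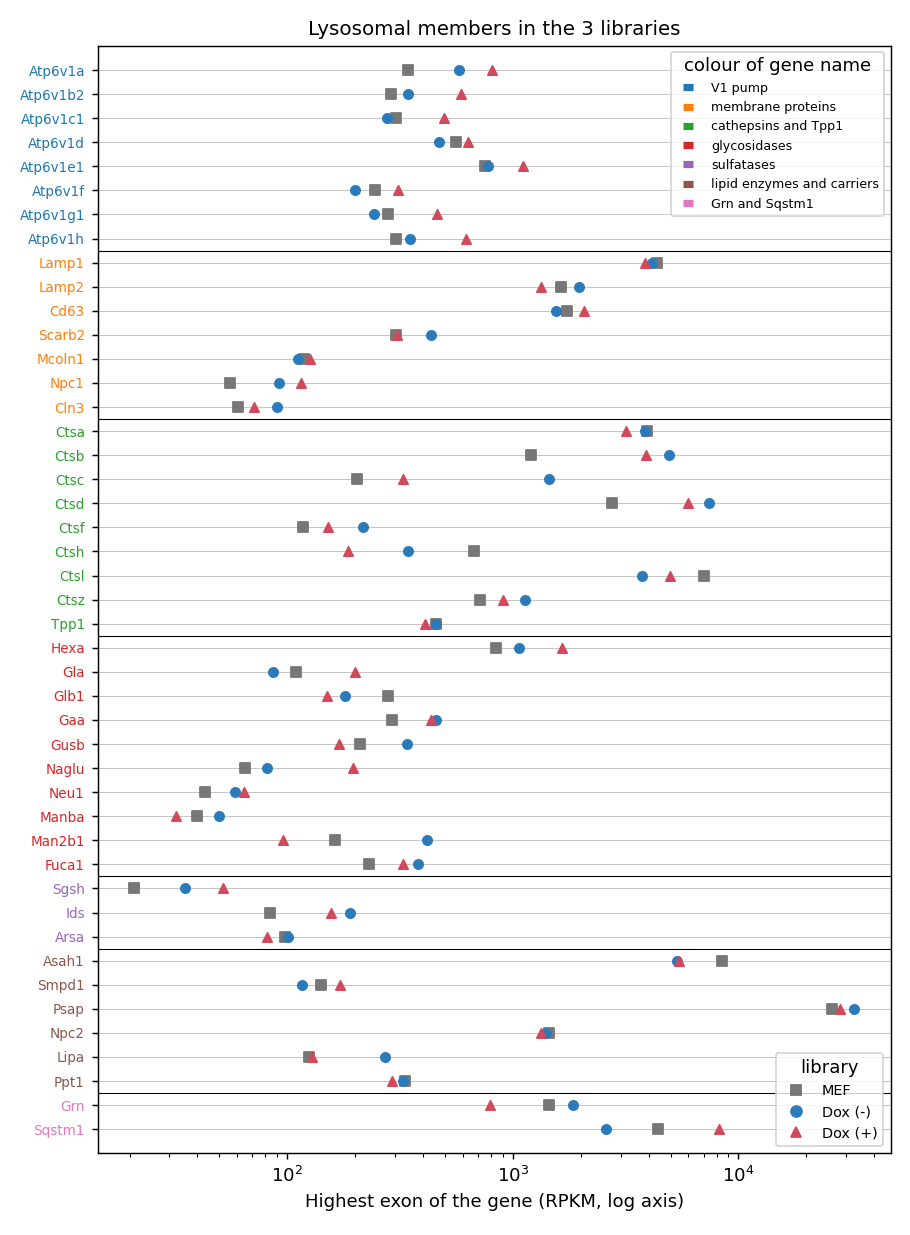
The highest exon of each gene in RPKM on a log axis is shown for MEF (squares), Dox (-) (circles) and Dox (+) (triangles), with gene names coloured by role. Dox (+) is the highest library for all 8 V1 subunits, while Dox (-) is the highest for 6 of the 9 cathepsin and Tpp1 genes.

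The main comparison asked what the lysosomal genes did when Mitf was induced in the knock-in MEFs. V1 pump subunits were higher in Dox (+), most cathepsins were lower, and the other roles were mixed. Over all 45 genes, 20 had a higher level in Dox (+) (44.4%, against 62.6% of the 13307 genes tested) and 25 were lower (37.4% of all genes). Beyond the counting error of 1 exon, 18 were higher (50.7% of all genes), 22 were lower (26.8% of all genes) and 5 were within it. Of the 45, 3 were more than 2-fold higher (10.8% of all genes), namely Sqstm1, Naglu and Gla. A further 5 were more than 2-fold lower (11.1% of all genes), namely Ctsc, Man2b1, Grn, Lipa and Gusb. None was more than 4-fold higher (1.64% of all genes), and Ctsc and Man2b1 were more than 4-fold lower (5.41% of all genes). The shares past 2-fold and past 4-fold were thus near or below those of all genes. The median log2 fold change of the 45 genes was -0.11, against 0.23 for all genes tested. With the libraries rescaled so that the median ratio of all genes was 1, 17 genes were higher and 28 lower, and rescaled to 10 housekeeping genes 12 were higher and 33 lower.

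**Figure D3:**
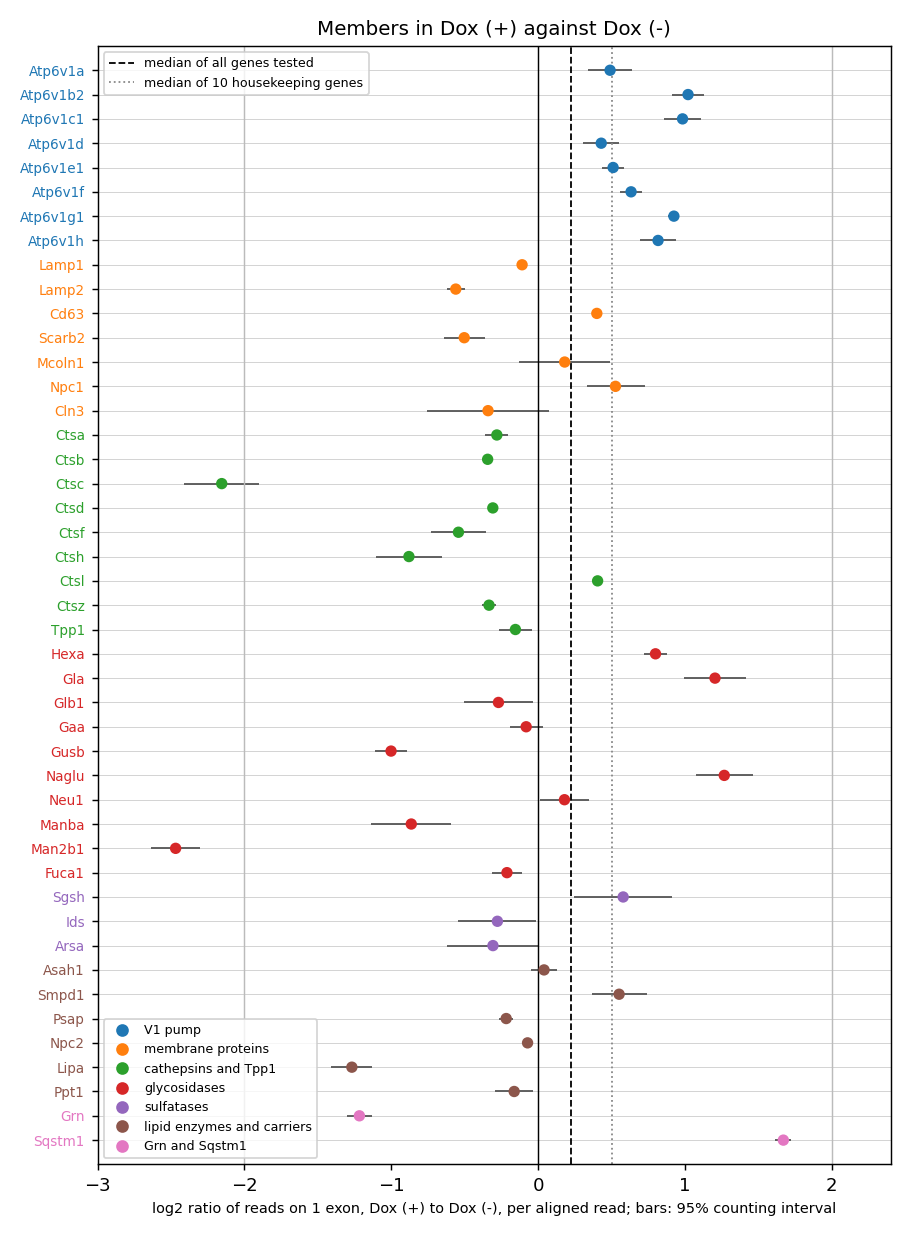
The log2 ratio of reads on the highest exon of each gene, Dox (+) to Dox (-), is plotted with its 95% counting interval and coloured by role. The dashed line is the median of all genes tested (0.23) and the dotted line the median of 10 housekeeping genes (0.50). V1 subunits lie right of 0, and all cathepsins but Ctsl lie left of it.

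All 8 V1 subunits had more RNA in Dox (+) than in Dox (-), by 1.35-fold to 1.90-fold with a median of 1.64-fold. The summed level of the 8 genes was 3076 RPKM in MEF, 3238 RPKM in Dox (-) and 5030 RPKM in Dox (+). Every expressed exon of these genes, 85 of 85, was higher in Dox (+), against 62.1% of all expressed exons.

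Atp6v1a and Atp6v1b2 encode the A and B subunits, which alternate in the ATP-hydrolysing ring. Atp6v1a had 344 RPKM in MEF, 578 RPKM in Dox (-) and 812 RPKM in Dox (+), and its Dox (+) level was 1.40-fold that of Dox (-) (1.27 to 1.56). Atp6v1b2 had 289, 342 and 591 RPKM in the same order, 1.73-fold higher. Both were ordered MEF, Dox (-), Dox (+) from low to high.

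Atp6v1d is part of the central rotor shaft, as is Atp6v1f. Atp6v1d had 558 RPKM in MEF, 469 RPKM in Dox (-) and 631 RPKM in Dox (+), the smallest ratio of the 8 at 1.35 (1.24 to 1.47). Atp6v1f had 245 RPKM in MEF, 199 RPKM in Dox (-) and 309 RPKM in Dox (+), 1.55-fold higher (1.47 to 1.64). In both, Dox (-) was the lowest library.

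Atp6v1e1 and Atp6v1g1 encode the peripheral stalks that hold the ring in place. Atp6v1e1 had 752 RPKM in MEF, 779 RPKM in Dox (-) and 1111 RPKM in Dox (+), 1.42-fold higher (1.35 to 1.5). Atp6v1g1 had 279 RPKM in MEF, 243 RPKM in Dox (-) and 461 RPKM in Dox (+), the largest ratio of the 8 at 1.90 (1.85 to 1.95). It rested on the deepest of the V1 exons, chr4:63549945-63550750 in mm10, with 10136 reads in MEF, 8802 in Dox (-) and 16337 in Dox (+).

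Atp6v1c1 and Atp6v1h encode subunits at the contact between V1 and V0. Atp6v1c1 had 304 RPKM in MEF, 276 RPKM in Dox (-) and 496 RPKM in Dox (+), 1.80-fold higher. Atp6v1h had 305 RPKM in MEF, 351 RPKM in Dox (-) and 619 RPKM in Dox (+), 1.76-fold higher (1.62 to 1.92). MEF and Dox (-) lay close together in these genes, and Dox (+) lay above both.

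The scaling bears on how large these V1 differences are. Rescaled to the median ratio of all genes, all 8 were still higher, by 1.15-fold to 1.61-fold. Of 10 housekeeping genes, 8 were also above Dox (-) in Dox (+), with a median of 1.42-fold, among them Gapdh at 2.74-fold and Rplp0 at 2.88-fold. When the libraries were rescaled to the housekeeping median, 6 of the 8 V1 subunits were higher, over a range of 0.951-fold to 1.34-fold.

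**Figure D4:**
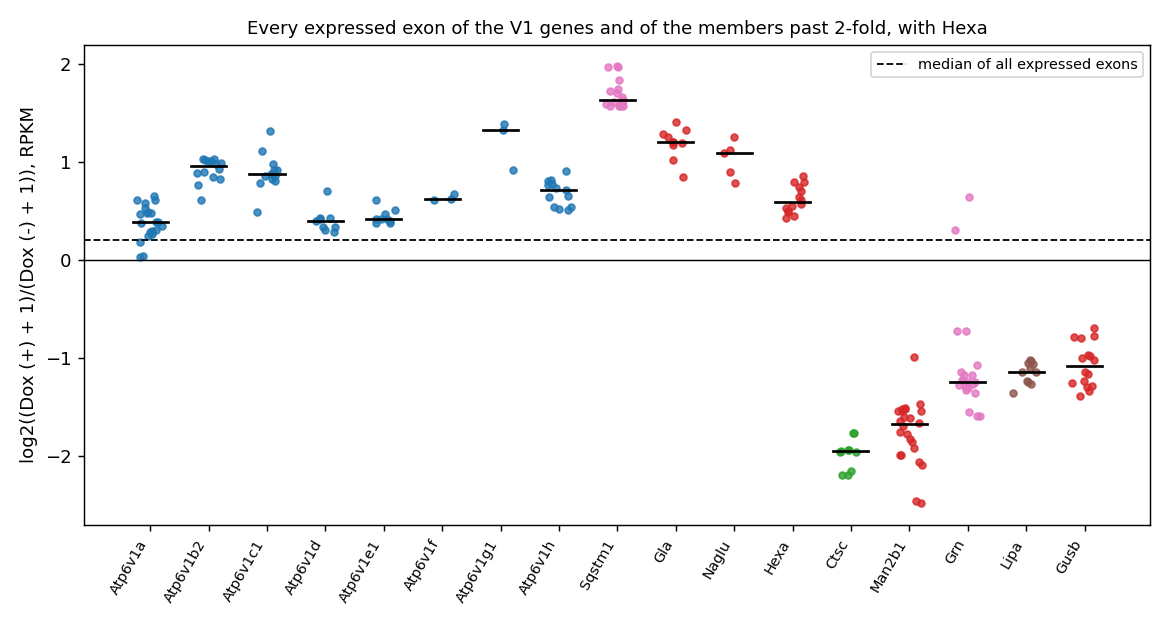
Each point is 1 expressed exon (above 10 RPKM in either library), placed by its log2 fold change between Dox (+) and Dox (-) with a pseudocount of 1 RPKM. Bars are medians per gene, and the dashed line is the median of all expressed exons. All 85 exons of the 8 V1 genes lie above 0, as do all 17 of Sqstm1, while all 10 of Ctsc and all 24 of Man2b1 lie below it.

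Membrane proteins were divided, with 3 of 7 higher and 4 of 7 lower in Dox (+) than in Dox (-), and none past 2-fold. Lamp1 and Lamp2 are the heavily glycosylated proteins that line the limiting membrane. Lamp1 had 4347 RPKM in MEF, 4138 RPKM in Dox (-) and 3836 RPKM in Dox (+), 1.08-fold lower in Dox (+) than in Dox (-) (1.05 to 1.11, 11309 against 12475 reads). This was among the 5 smallest differences of the 45 genes. Lamp2 had 1635, 1969 and 1335 RPKM, 1.48-fold lower (1.42 to 1.54), and all 10 of its expressed exons were lower.

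Cd63, a tetraspanin of late endosomes that also takes part in melanosome formation, had 1744 RPKM in MEF, 1559 RPKM in Dox (-) and 2056 RPKM in Dox (+), 1.32-fold higher (1.29 to 1.35). Scarb2, which carries glucocerebrosidase to the lysosome, had 303 RPKM in MEF, 435 RPKM in Dox (-) and 307 RPKM in Dox (+), 1.42-fold lower (1.29 to 1.56). Dox (+) thus lay at the level of MEF for Scarb2, with all 12 expressed exons below Dox (-).

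Npc1, which exports cholesterol from the lysosome, had 56 RPKM in MEF, 92.1 RPKM in Dox (-) and 115 RPKM in Dox (+), 1.25-fold above Dox (-), with 21 of 24 exons higher. Mcoln1, a calcium channel of the lysosomal membrane, had 119, 112 and 127 RPKM, and its interval of 0.914 to 1.41 included 1. Cln3, a membrane protein mutated in Batten disease, had 60.3, 90.5 and 71.4 RPKM, and its interval (0.951 to 1.69-fold lower) also included 1. All 31 of its expressed exons were lower, which is a count within the same pair of libraries and not a further check. On Mcoln1, 4 of 14 exons were higher, so the direction of that gene depends on the exon read.

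Of the cathepsins and Tpp1, 8 of 9 were lower in Dox (+) than in Dox (-), all beyond counting error, and Ctsl was higher. The median log2 fold change of the 9 genes was -0.33. Of their expressed exons, 81 of 110 were lower.

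Ctsc, also called dipeptidyl peptidase I and known for activating serine proteases in granules of immune cells, differed most among the 45 genes. Its level was 204 RPKM in MEF, 1444 RPKM in Dox (-) and 324 RPKM in Dox (+). Its highest exon, chr7:88308013-88308023 in mm10, is only 11 bp and held 101 reads in MEF, 715 in Dox (-) and 157 in Dox (+), 4.45-fold lower in Dox (+) than in Dox (-) (3.74 to 5.33). All 10 expressed exons were lower, and the median over exons was 3.85-fold lower, which is under the 4-fold limit.

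Ctsb and Ctsd, the most abundant cysteine and aspartic cathepsins of many cells, were highest in Dox (-) and remained far above MEF in Dox (+). Ctsb had 1198 RPKM in MEF, 4929 RPKM in Dox (-) and 3884 RPKM in Dox (+), 1.27-fold lower in Dox (+) than in Dox (-) (1.24 to 1.30). Ctsd had 2754 RPKM in MEF, 7399 RPKM in Dox (-) and 5974 RPKM in Dox (+), 1.24-fold lower (1.22 to 1.26). The highest exon of Ctsd overlaps the predicted gene Gm49369, so reads cannot be assigned to 1 of them.

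Ctsl, a cysteine cathepsin, had the opposite order, with 7014 RPKM in MEF, 3736 RPKM in Dox (-) and 4948 RPKM in Dox (+), 1.32-fold higher in Dox (+) than in Dox (-) (1.30 to 1.35). All 8 of its expressed exons were higher. Ctsh, an aminopeptidase, was lower in each step, with 674 RPKM in MEF, 343 RPKM in Dox (-) and 186 RPKM in Dox (+), 1.84-fold lower in Dox (+) than in Dox (-) (1.58 to 2.15), and all 16 expressed exons were lower.

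The other peptidases differed less. Ctsz, a carboxypeptidase, had 713, 1136 and 901 RPKM in MEF, Dox (-) and Dox (+), and Ctsf, a cysteine cathepsin, had 118, 218 and 152 RPKM, so both had a peak in Dox (-). Ctsa, the protective protein that holds beta-galactosidase and neuraminidase in a complex, had 3928, 3842 and 3162 RPKM. Tpp1, a tripeptidyl peptidase, had 454, 454 and 408 RPKM. Ctsa and Tpp1 were 1.22-fold and 1.11-fold lower in Dox (+) than in Dox (-), but 13 of 27 exons of Ctsa and 4 of 13 of Tpp1 were higher, so these small differences depend on the exon read.

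Glycosidases moved in both directions, with 4 of 10 higher and 6 of 10 lower in Dox (+) than in Dox (-). Naglu, Gla and Hexa stood highest, and Man2b1 and Gusb lowest.

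Naglu, which removes N-acetylglucosamine from heparan sulfate, had 65.1 RPKM in MEF, 81.7 RPKM in Dox (-) and 197 RPKM in Dox (+). Its highest exon, chr11:101072217-101072302 in mm10, held 252 reads in MEF, 316 in Dox (-) and 744 in Dox (+), 2.41-fold higher in Dox (+) than in Dox (-) (2.11 to 2.76). All 5 expressed exons were higher. Gla, the alpha-galactosidase deficient in Fabry disease, had 109 RPKM in MEF, 86.3 RPKM in Dox (-) and 199 RPKM in Dox (+). Its highest exon, chrX:134595289-134595357 in mm10, held 339, 268 and 604 reads, 2.30-fold higher in Dox (+) than in Dox (-) (1.99 to 2.67), and all 10 expressed exons were higher. In both genes MEF and Dox (-) lay well below Dox (+). Naglu and Gla carry CACGTG in their promoter windows. The glycosidases Glb1 and Gaa carry it too, and their log2 fold changes between Dox (+) and Dox (-) were -0.27 and -0.06.

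Hexa, the alpha subunit of beta-hexosaminidase that is deficient in Tay-Sachs disease, had 840 RPKM in MEF, 1062 RPKM in Dox (-) and 1650 RPKM in Dox (+), 1.55-fold higher, with all 14 expressed exons higher. Neu1, a neuraminidase, had 43.1, 58.7 and 64.1 RPKM, one of the 5 smallest differences between the knock-in libraries, and its highest exon in Dox (+) held 629 reads against 568 in Dox (-) (1.13-fold higher, 1.01 to 1.27). With reads summed over exons per kb the direction of Neu1 reversed, with 34.4 RPKM in Dox (-) and 32.1 RPKM in Dox (+).

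Man2b1, which trims mannose from N-glycans, had 163 RPKM in MEF, 415 RPKM in Dox (-) and 95.6 RPKM in Dox (+), 4.35-fold lower in Dox (+) than in Dox (-). On its highest exon in Dox (-), chr8:85096952-85097054 in mm10, there were 756 reads in MEF, 1925 in Dox (-) and 340 in Dox (+), 5.54-fold lower (4.93 to 6.23). All 24 expressed exons were lower, with a median over exons of 3.19-fold. Gusb, a beta-glucuronidase, had 209, 340 and 170 RPKM, 2.0-fold lower (1.9 to 2.2, 1068 reads in Dox (+) against 2187 in Dox (-)), with all 16 expressed exons lower.

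Manba, a beta-mannosidase, had 39.7, 50.0 and 32.3 RPKM in MEF, Dox (-) and Dox (+), and 15 of its 16 exons were lower in Dox (+) than in Dox (-). Fuca1, a fucosidase, had 231, 379 and 327 RPKM, 1.16-fold lower (1.08 to 1.24). Glb1, the beta-galactosidase used as a senescence stain, had 281, 180 and 150 RPKM, 1.21-fold lower (1.02 to 1.42) with all 15 exons lower. Gaa, the acid alpha-glucosidase, had 291, 455 and 436 RPKM, and its highest exon held 1231 reads in Dox (+) against 1332 in Dox (-), an interval of 0.978 to 1.14-fold lower that includes 1.

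Among the sulfatases, Sgsh was higher and Ids and Arsa were lower in Dox (+) than in Dox (-). Sgsh, a heparan sulfate sulfamidase, had 20.9 RPKM in MEF, 35.2 RPKM in Dox (-) and 51.8 RPKM in Dox (+), 1.47-fold higher, and 7 of its 9 expressed exons were higher. Ids, the iduronate sulfatase, had 83.9, 189 and 156 RPKM, 1.21-fold lower (1.01 to 1.46) with all 11 exons lower. Arsa, which desulfates sulfatide, had 97.5, 101 and 81.6 RPKM, 1.24-fold lower (1.00 to 1.53) with all 10 exons lower.

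Of the lipid enzymes and carriers, 2 of 6 had a higher level in Dox (+) than in Dox (-) and 4 of 6 a lower level. Lipa, the acid lipase that frees cholesterol from its esters, had 125 RPKM in MEF, 270 RPKM in Dox (-) and 128 RPKM in Dox (+), 2.11-fold lower. On its highest exon in Dox (-), chr19:34523422-34523539 in mm10, it had 599, 1434 and 582 reads, 2.41-fold lower (2.19 to 2.66), and all 11 expressed exons were lower. Dox (+) and MEF lay at nearly the same level. Smpd1, the acid sphingomyelinase, had 141, 117 and 171 RPKM, 1.47-fold higher (1.29 to 1.67) with all 6 exons higher.

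The remaining lipid genes differed little between the knock-in libraries. Asah1, the acid ceramidase, had 8467 RPKM in MEF, 5323 RPKM in Dox (-) and 5475 RPKM in Dox (+), the smallest difference of all 45 genes, with 2168 against 2156 reads on an exon of 9 bp (1.03-fold higher, 0.968 to 1.09). Npc2, which hands cholesterol to Npc1, had 1446, 1404 and 1336 RPKM, with 10170 against 10932 reads (1.05-fold lower, 1.02 to 1.08). Psap, the precursor of the saposins that activate sphingolipid hydrolases, had 25893, 32653 and 28086 RPKM on its exon of 5 bp, 1.16-fold lower (1.12 to 1.20). Ppt1, a thioesterase that removes palmitate from proteins, had 334, 326 and 291 RPKM, 1.12-fold lower (1.02 to 1.23).

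Grn, the precursor of the granulins that is secreted and also taken into lysosomes, had 1450 RPKM in MEF, 1839 RPKM in Dox (-) and 791 RPKM in Dox (+). Its highest exon, chr11:102434400-102434446 in mm10, held 3067, 3890 and 1636 reads, 2.32-fold lower in Dox (+) than in Dox (-) (2.19 to 2.46). Of its 21 expressed exons 19 were lower. Dox (+) was the lowest library for Grn.

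Sqstm1, also known as p62, binds ubiquitinated cargo and the autophagosome and is itself degraded in lysosomes. It was the member with the largest difference upwards, with 4382 RPKM in MEF, 2582 RPKM in Dox (-) and 8218 RPKM in Dox (+). Its highest exon, chr11:50202399-50202429 in mm10, held 6113 reads in MEF, 3602 in Dox (-) and 11209 in Dox (+), 3.18-fold higher in Dox (+) than in Dox (-) (3.07 to 3.31). All 17 expressed exons were higher, with a median of 3.11-fold.

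Counted together, the 29 soluble hydrolases and carriers with Grn had a higher level in Dox (+) than in Dox (-) in 8 cases and a lower level in 21, with a median log2 fold change of -0.27. The 8 V1 subunits had a median of 0.71. These are counts over genes of the same pair of libraries and not over replicates.

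The same genes were compared with the library labelled MEF. This comparison shares the Dox (+) library with the main one, and passage, genotype and doxycycline differ along with Mitf. Against MEF, 30 of 45 genes were higher in Dox (+) (66.7%, against 63.3% of 12941 genes tested) and 15 were lower (36.7% of all genes). Beyond the counting error of 1 exon, 26 were higher (54.5% of all genes), 14 were lower (28.9% of all genes) and 5 were within it. Of the 45, 8 were more than 2-fold higher (20.2% of all genes) and Ctsh was more than 2-fold lower (8.98% of all genes). None was more than 4-fold higher or lower (6.55% and 3.4% of all genes). The median log2 fold change was 0.28, against 0.27 for all genes, so the list as a whole sat where all genes sat. Rescaled to the median ratio of all genes, 23 were higher and 22 lower.

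The genes past 2-fold above MEF came from every role but the lipid genes, Grn and Sqstm1. V1 subunits gave 3 of them, Atp6v1a at 2.36-fold (2.08 to 2.67), Atp6v1b2 at 2.05-fold and Atp6v1h at 2.03-fold (1.86 to 2.22). The exon of Atp6v1a is only 24 bp, and with reads summed over exons per kb Atp6v1a had 125 RPKM in MEF and 165 RPKM in Dox (+). On that scale, with a pseudocount of 1 RPKM, the largest V1 ratio was 1.91-fold, so these 3 calls depend on the exon read. All 8 V1 subunits were higher than in MEF, from 1.13-fold for Atp6v1d to 2.36-fold, on 80 of 85 expressed exons against 70.1% of all expressed exons. Rescaled to the median ratio of all genes, 7 of 8 were higher, and Atp6v1d was at 0.93-fold.

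The others were Ctsb, Ctsd, Naglu, Sgsh and Npc1. Ctsb was 3.24-fold higher in Dox (+) than in MEF and Ctsd 2.17-fold (2.13 to 2.21). Naglu was 3.02-fold higher (2.61 to 3.50). Sgsh was 2.48-fold higher (1.90 to 3.28), from 77 reads in MEF to 187 in Dox (+). With reads summed over exons per kb, the difference of Sgsh was smaller, with 12.1 RPKM in MEF and 18.6 RPKM in Dox (+). For Npc1 the ratio was 2.05 and all 24 of its expressed exons were higher. Hexa was just under the limit at 1.96-fold. Ctsh was 3.62-fold lower (3.15 to 4.17), from 940 reads in MEF to 254 in Dox (+), on 17 of 17 exons.

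Sorted by which library was highest, 18 of the 45 genes had their maximum in Dox (+), 19 in Dox (-) and 8 in MEF. Naglu, Hexa, Neu1, Npc1, Sgsh and 4 V1 subunits stepped up from MEF through Dox (-) to Dox (+). Ctsh, Glb1, Ctsa, Lamp1, Npc2 and Ppt1 stepped down in the same order. With reads summed over exons per kb some of these orders changed, and Neu1 was then lower in Dox (+) than in Dox (-). Neighbouring libraries within counting error, such as MEF and Dox (-) for Ctsa, Tpp1, Arsa and Ppt1, have no firm order.

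Untreated knock-in MEFs were compared with MEF to see where the baseline of the knock-in cells lay. In Dox (-) 28 of 45 genes were higher than in MEF (50.6% of 13234 genes tested) and 17 lower (49.1% of all genes). Beyond the counting error of 1 exon, 26 were higher (40% of all genes), 15 were lower (38.2% of all genes) and 4 were within it. Of the 45, 6 were more than 2-fold higher (17.3% of all genes), Ctsc, Ctsb, Ctsd, Man2b1, Ids and Lipa, and none was more than 2-fold lower (7.93% of all genes). Ctsc at 7.08-fold (5.74 to 8.81) and Ctsb at 4.12-fold were more than 4-fold higher (8.26% of all genes). The median log2 fold change was 0.27, against 0.01 for all genes. Rescaled to the housekeeping genes, 40 were higher and 5 lower. Ctsd was 2.69-fold higher (2.64 to 2.74), Man2b1 2.55-fold (2.34 to 2.77), Ids 2.26-fold (1.81 to 2.83) and Lipa 2.2-fold. The exon of Ids is only 31 bp, and its median over exons was 1.89-fold. With reads summed over exons per kb Ids had 28.8 RPKM in MEF and 37.8 RPKM in Dox (-), so this call depends on the exon read.

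V1 subunits were divided in Dox (-). Against MEF, 4 of 8 were higher and 4 lower, from 1.23-fold lower for Atp6v1f to 1.68-fold higher for Atp6v1a. With reads summed over exons per kb and a pseudocount of 1 RPKM, the largest V1 ratio was 1.11-fold. Sqstm1 was 1.70-fold lower in Dox (-) than in MEF (1.63 to 1.77), on 17 of 17 exons. Rescaled to the housekeeping median, all 8 V1 subunits were higher in Dox (-) than in MEF, so this count depends on the scaling.

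Macrophage markers were set beside several of these genes. All 10 markers were highest in Dox (-), and each was more than 4-fold lower in Dox (+) and more than 4-fold lower in MEF. Csf1r, the receptor for the macrophage growth factor, had 8.10 RPKM in MEF, 342 RPKM in Dox (-) and 11 RPKM in Dox (+). Lyz2, a lysozyme of macrophages and other myeloid cells, had 27.8, 10820 and 379 RPKM. In MEF 5 of the 10 markers were under 1 RPKM, and in Dox (+) 2 of the 10 were. In these bulk samples fewer cells of a type and less RNA per cell cannot be told apart.

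Ctsc, Man2b1, Grn, Lipa, Gusb, Ctsb and Ctsd all had their maximum in the same Dox (-) library as these markers. Of 9 fibroblast markers 7 were also highest in Dox (-), as were 19 of the 45 genes, the named genes included. The share of all genes with their maximum in Dox (-) was not counted. The part of macrophage or fibroblast markers in the differences of the lysosomal genes was not tested. Against MEF, where the markers summed to 47.2 RPKM, Dox (+) was 1.59-fold higher for Ctsc (1.23 to 2.06), 1.71-fold lower for Man2b1, 1.83-fold lower for Grn (1.73 to 1.95), 1.23-fold lower for Gusb (1.14 to 1.34) and 1.02-fold higher for Lipa. Ctsc and Lipa were thus lower in Dox (+) than in Dox (-) and not lower than in MEF, while Man2b1, Grn and Gusb were lower than in both. Naglu, Gla, Hexa, Sqstm1 and the V1 subunits had their maximum in Dox (+), where the markers summed to 576 RPKM against 16877 RPKM in Dox (-).

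**Figure D5:**
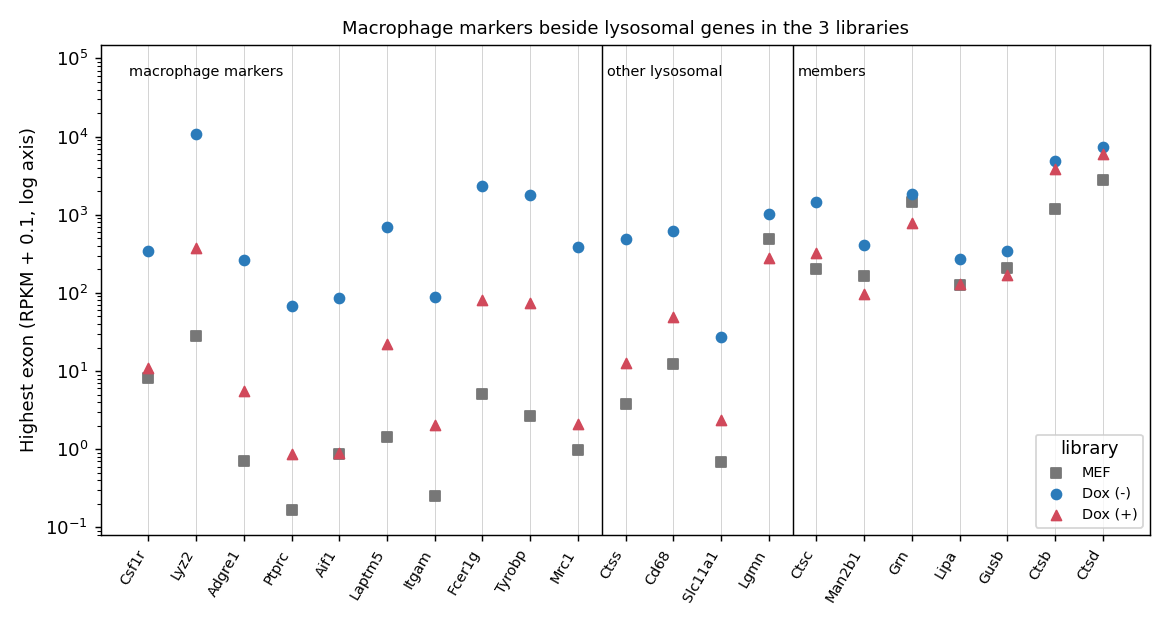
The highest exon in RPKM, with 0.1 added for the log axis, is shown in the 3 libraries for 10 macrophage markers, 4 other lysosomal genes and 7 of the 45 genes. All of these are highest in Dox (-), and the markers differ between Dox (-) and MEF far more than the 7 lysosomal genes do. The 7 genes were picked from those past 2-fold in a comparison with Dox (-), so their maximum there largely follows from that choice.

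Other cell type markers also differed between the knock-in libraries. Of 9 fibroblast markers 7 were lower in Dox (+) than in Dox (-) (37.4% of all genes). Col1a1, Col1a2, Col3a1 and Lum, all genes of the collagen matrix, were more than 4-fold lower (5.41% of all genes). Thy1 at 1.79-fold and Vim at 1.98-fold were higher in Dox (+). Of 8 melanocyte markers 3 passed the expression limit, all higher in Dox (+), and the summed level of the 8 was 4.43 RPKM in MEF, 14.8 RPKM in Dox (-) and 264 RPKM in Dox (+). Of 5 epithelium markers only Krt14 passed the limit, with 32.8 RPKM in MEF, 2.12 RPKM in Dox (-) and 26.9 RPKM in Dox (+). The part of these shifts in the lysosomal values was not tested.

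A further list of 48 lysosomal genes outside the 45 gave 47 found and 46 tested between the knock-in libraries. Of these, 22 were higher (62.6% of all genes) and 24 lower (37.4% of all genes) in Dox (+). None was more than 2-fold higher (10.8% of all genes). A total of 7 were more than 2-fold lower (15.2%, against 11.1% of all genes), and 3 of these more than 4-fold (5.41% of all genes). These 3 are expressed in macrophages. Ctss, a cathepsin of antigen-presenting cells, had 3.67 RPKM in MEF, 494 RPKM in Dox (-) and 12.6 RPKM in Dox (+). Cd68, a membrane protein used as a macrophage marker, had 12.1, 614 and 49.2 RPKM, and Slc11a1, a metal transporter of phagosomes, had 0.577, 27.3 and 2.27 RPKM. All 3 shared the peak of the macrophage markers in Dox (-).

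Against MEF, 26 of 44 of these genes were higher in Dox (+) (59.1%, against 63.3% of all genes). Of the 44, 11 were more than 2-fold higher (25%, against 20.2% of all genes) and 4 more than 4-fold (6.55% of all genes). Ctsk, the collagen-degrading cathepsin of osteoclasts, had 18.2 RPKM in MEF, 259 RPKM in Dox (-) and 450 RPKM in Dox (+), 24.7-fold higher in Dox (+) than in MEF (19.9 to 31.0). Gpnmb, a membrane glycoprotein of melanosomes and lysosomes, had 47.8, 522 and 662 RPKM, 13.9-fold higher (12 to 16.1). Both were already high without doxycycline, where Ctsk was 14.2-fold and Gpnmb 10.9-fold above MEF. Hyal1, a hyaluronidase, was 4.18-fold higher and Cd68 4.06-fold higher. Prcp, a prolylcarboxypeptidase, was 4.06-fold lower (3.56 to 4.64).

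Of 5 V1 isoforms known from other tissues 3 were found and 1, Atp6v1c2, passed the expression limit. It had 4.58 RPKM in MEF, 3.90 RPKM in Dox (-) and 24.5 RPKM in Dox (+), 6.28-fold above Dox (-) in Dox (+). The highest exon in Dox (+) held 14 reads there and 0 in each of the others, while another exon held 47, 40 and 42 reads in MEF, Dox (-) and Dox (+), so this call depends on the exon read.

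Genes that tag and sort the soluble hydrolases through mannose 6-phosphate were within 2-fold between the knock-in libraries for 6 of 7 genes, 3 higher and 3 lower in Dox (+). The seventh was Igf2r, the large mannose 6-phosphate receptor, with 411 RPKM in MEF, 721 RPKM in Dox (-) and 201 RPKM in Dox (+), 3.59-fold lower (3.28 to 3.93). Among the MiT/TFE factors only Mitf was more than 2-fold higher in Dox (+). Tfeb had 27.7, 32.5 and 23.1 RPKM, Tfe3 had 196, 293 and 322 RPKM, and Tfec, which is expressed in macrophages, was listed at 0 in MEF and had 10.4 and 1.20 RPKM in Dox (-) and Dox (+).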

How the data were processed

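The authors prepared poly(A) RNA libraries with a TruSeq kit, aligned reads to mm10 with TopHat2 2.0.10, counted them on Ensembl exons with bedtools and deposited RPKM per exon, after demultiplexing with bcl2fastq 2.17.1.14 (from the submitters' processing notes). Counting by strand is not stated, so overlapping genes can share reads. The number of columns of values left unused, because the name matched no library label, was 1.

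Of 234718 exons 228132 matched GENCODE M21, which gives 22835 genes. A gene's level was its highest exon RPKM in each library, as in the study. Genes above 10 RPKM in at least 1 of 2 libraries were tested and called above 4-fold, with 2-fold beside it, without a pseudocount. Log2 fold changes used a pseudocount of 1 RPKM. Reads were recovered with depths of 45000000 reads (MEF, Dox (-)) and 44000000 reads (Dox (+)), at which 96.9% to 97.2% of values were whole within 0.02 reads. Ratios of reads carry exact 95% intervals, which cover counting error only. No p-value was computed.

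All 45 genes were named by role, with reads for those past 2-fold and for the 5 smallest differences. Other lysosomal genes were named past 4-fold. Genes of the remaining lists were named after their values were seen. The members and lists were chosen with earlier results of these data known. Alternatives changed thresholds, pseudocount, exon choice and scaling. Promoter windows came from RefSeq. The steps were tested on simulated data. Python 3.11.15, pandas 2.3.3, NumPy 2.4.6, SciPy 1.17.1 and matplotlib 3.10.9 were used.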

Additional observations from a re-analysis of the deposited data

How the results depend on the processing

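The count of genes past 4-fold was 2 between Dox (+) and Dox (-), 0 between Dox (+) and MEF and 2 between Dox (-) and MEF. At 2-fold the counts were 8, 9 and 6, and at 8-fold they were 0 in each. Between Dox (+) and Dox (-) the count was 1 with reads summed over exons per kb and 0 with the median over exons. Between Dox (+) and MEF it was 1 (Ctsh) when libraries were rescaled to a median ratio of 1. The median log2 fold change between Dox (+) and Dox (-), -0.11, was -0.34 rescaled to the median ratio and -0.61 rescaled to the housekeeping genes. Between Dox (+) and MEF it went from 0.28 to 0.0037 rescaled to the median ratio, and between Dox (-) and MEF from 0.27 to 0.80 rescaled to the housekeeping genes. V1 subunits higher in Dox (-) than in MEF went from 4 to 8 with the housekeeping genes. No gene past 2-fold changed direction under any alternative run. The housekeeping scaling and the limit to exons of 100 bp or more were chosen after seeing the data. Alternatives that need PMel were not run. No paired analysis was possible because each condition has 1 library, and for the same reason no library could be left out. Depth limits the low genes most, such as Sgsh with 77 to 187 reads on 1 exon.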
